A study of Mus musculus with 6 samples.

Results

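The genes described here encode membrane carriers of amino acids and closely related molecules in cultured mouse aortic cells with and without Nt5e. Members were all genes of the deposited table whose symbol begins with Slc1a, Slc3a, Slc6a, Slc7a, Slc36a, Slc38a or Slc43a followed by a number alone, which gave 61 of the 25683 genes listed. A member was called expressed when at least 10 exon reads were counted in at least 3 of the 6 libraries, and 31 of the 61 met this rule, against 12683 of all 25683 genes. By family, 4 of 7 Slc1a genes, both of the 2 Slc3a genes, 4 of 19 Slc6a genes, 8 of 15 Slc7a genes, 3 of 4 Slc36a genes, 7 of 11 Slc38a genes and all 3 Slc43a genes were expressed. Poly(A)-selected RNA had been sequenced from 3 libraries of Nt5e knock-out cells (libraries 1 to 3) and 3 libraries of Nt5e wild-type cells (libraries 4 to 6), labelled as vascular smooth muscle cells from a primary line of the aorta. CD73, the product of Nt5e, turns AMP into adenosine outside the cell, and the series title names adenosine signalling, TGF-beta 2, elastin and contraction. Cells of both genotypes were grown at 10% serum and then kept at 0.5% serum for 48 h, with no other agent in the labels. The labels give neither age nor strain, do not say how the knock-out was made, and do not state whether libraries of 1 genotype are from separate animals or cultures. The p-values therefore describe the spread among these libraries, which may be technical.

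Amino acid carriers set which amino acids a cell can take up, exchange or release, and they work by several mechanisms. Slc7 light chains such as those of system L and of the cystine carrier reach the cell surface only when bound to a heavy chain, Slc3a2 or Slc3a1, and exchange 1 amino acid for another. Slc38 and Slc1 carriers draw amino acids in with sodium, Slc36 carriers with protons, and Slc6 carriers with sodium and chloride. In smooth muscle, uptake of arginine feeds nitric oxide and polyamine synthesis, and glutamine and proline are used for collagen synthesis. When amino acids run short, the transcription factor ATF4 raises several of these genes.

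Depth was 19919095 to 23669252 exon reads per library, and the 61 members took 0.244% of reads in knock-out library 1 and 0.286% to 0.303% in the other 5 libraries. Exon reads of Nt5e numbered 22, 1 and 2 across knock-out libraries 1 to 3 and 615, 688 and 486 across wild-type libraries 4 to 6. Knock-out libraries 2 and 3 were nearly identical (biological coefficient of variation 3.66%), as were wild-type libraries 4 and 6 (3.49%), while knock-out library 1 differed from libraries 2 and 3 by 44.6% and 45.1% and from the wild-type libraries by 43.7% to 48.0%. Of the 9 smooth muscle markers, Myh11 stayed at 3.56 CPM or less in every library, and Des and Myocd at 0.173 CPM or less. CPM is the exon read count scaled to the TMM-adjusted library size. All 9, led by Cald1 and Acta2, summed to 969, 2513 and 2437 CPM across knock-out libraries 1 to 3. Across wild-type libraries 4 to 6 the sum was 1021, 914 and 1093 CPM, so library 1 lay within the wild-type range. Of 6 tested, 1 passed as higher and 1 as lower, with a median log2 fold change of 0.67. All 9 tested of the 11 markers of mesothelium and epithelium were lower in the knock-out. Their summed level over all 11 was 2698 to 2781 CPM in the wild type and 75.2 to 160.2 CPM in the knock-out, with Krt8 and Krt18 at 0 in every knock-out library. The 6 fibroblast markers, led by Dcn and Col1a1, summed to 4031 to 5903 CPM in the knock-out and 3655 to 3782 CPM in the wild type, with 1 passing as higher and 1 as lower and a median log2 fold change of 0.74. Leukocyte markers summed to 3.52 CPM or less and endothelial markers to 6.79 CPM or less in every library, with Ptprc, Itgam and Adgre1 at 0 in all 6. The part of the smooth muscle, fibroblast, mesothelial and epithelial markers in the results below was not tested, and in such bulk RNA fewer cells of a type and less RNA per cell cannot be told apart.

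The 30 members that were not expressed had few or no reads. 11 of them had 0 reads in all 6 libraries, and 29 stayed under 10 reads in every library. The exception was Slc1a3, an astrocyte glutamate transporter, with 10 reads in wild-type library 4 and at most 8 elsewhere. Slc7a8, a system L light chain, had at most 5 reads, and Slc38a3, a glutamine carrier of liver and kidney, at most 6. Most Slc6a genes, which include the transporters of GABA, dopamine, noradrenaline, serotonin and proline, were in this group. Slc6a7, the brain proline transporter, had 9 reads in library 2, 5 in library 3 and 0 elsewhere, and Slc6a15 had 8 reads in wild-type library 6 alone.

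Levels per kilobase of exon, which allow genes to be compared, spanned more than 3 orders of magnitude among the 31 expressed members. Slc38a2, the sodium-coupled carrier SNAT2 of small neutral amino acids, was highest in both genotypes, with 127 ± 12.1 CPM per kilobase in the wild type and 122 ± 13.9 in the knock-out (means with SD, 3 libraries each). In the wild type it was followed by Slc6a6 (72.5 ± 2.99), the taurine transporter, Slc38a10 (64.9 ± 1.35) and Slc3a2 (63.2 ± 1.74). The ranges of Slc38a10 and Slc3a2 overlapped, though Slc38a10 was the higher of them in each wild-type library. Next came Slc43a3 (42.3 ± 2.81), Slc1a5 (39.8 ± 1.15) and Slc6a8 (34.8 ± 6.28), again with overlapping ranges between neighbours. The order in the knock-out was different below the top, with Slc3a2 (81.0 ± 17.9), Slc43a3 (62.6 ± 28.0) and Slc7a2 (52.6 ± 15.7) next. Slc3a2 was above Slc43a3 and Slc7a2 in each knock-out library. The range of Slc43a3 overlapped those of Slc3a2 and Slc7a2. Slc6a6 moved from rank 2 in the wild type to rank 7 in the knock-out and Slc7a2 from rank 8 to rank 4. Slc6a17, Slc1a2, Slc38a4, Slc7a3, Slc43a1 and Slc3a1 averaged under 0.5 CPM per kilobase in both genotypes. The 5 members with the highest CPM held 63.0% of the summed CPM of the 31 genes. That sum was 2401, 3215 and 3033 CPM across knock-out libraries 1 to 3 and 2853, 2894 and 2827 across wild-type libraries 4 to 6, so the genotypes overlapped.

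**Figure D1:**
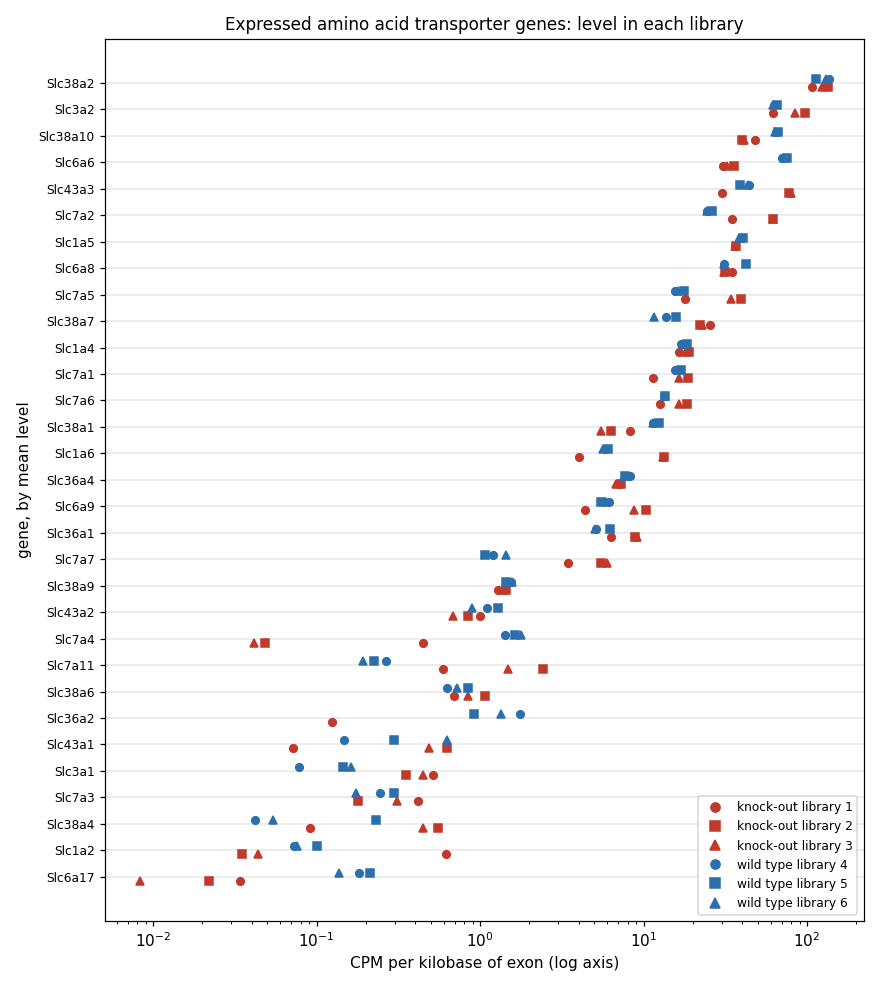
Level of each of the 31 expressed genes in each of the 6 libraries, in CPM per kilobase of exon on a log axis, ordered by the mean over libraries; red points are knock-out and blue points wild-type libraries, and the 2 zero values of Slc36a2 in knock-out libraries 2 and 3 are not drawn. Slc38a2 is highest in both genotypes, and Slc6a6 and Slc7a4 are among the genes whose red and blue points are fully parted.

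Between the genotypes, 11 of the 31 expressed members passed the test (edgeR's quasi-likelihood test with p adjusted by Benjamini-Hochberg over all 12660 tested genes, under 0.05), 5 higher and 6 lower in the knock-out. This is 35.5% of the expressed members, against 27.8% of all tested genes, 14.1% higher and 13.7% lower. The cystine and y+L light chains Slc7a11 and Slc7a7, the heavy chain Slc3a1, the cationic carrier Slc7a2 and the lysosomal glutamine carrier Slc38a7 rose. The taurine transporter Slc6a6, the SNAT1 gene Slc38a1, Slc38a10, the vesicular carrier Slc6a17, Slc7a4 and the proton-coupled carrier Slc36a2 fell. The fitted change was at least 2-fold for 8 of the 11. The median log2 fold change of the 31 was 0.24, against 0.018 over all tested genes, and the median size without sign was 0.57 against 0.34. The knock-out and wild-type ranges were fully separate for 16 of the 31 (7 higher, 9 lower), or 51.6%, against 49.7% of all tested genes (24.3% higher, 25.5% lower). These shares lie near the background. Of the 31, 24 had at least 10 reads in all 6 libraries. Slc36a2 and Slc6a17 reached 10 reads in the wild-type libraries alone and Slc3a1 in the knock-out libraries alone, so for these 3 a difference was built into being tested.

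The 11 calls depended on counting nearly identical libraries separately. The last number of the titles, whose meaning the labels do not give, is 2 for libraries 2, 3, 4 and 6, which form the nearly identical pairs, and 1 for libraries 1 and 5, which stand apart within their genotypes. Library 5 differed from libraries 4 and 6 by 15% and 15.7% (biological coefficient of variation). The first part of the titles, the stem, follows another division, since libraries 1 and 2 share a stem, as do 5 and 6. A middle part, also not explained, is p11 for libraries 1, 4 and 5 and p12 for libraries 2, 3 and 6. It parts knock-out library 1 from libraries 2 and 3 and is not balanced between the genotypes. The part of this label was not tested. As the ranges of the 11 genes did not overlap, each kept its direction within either last title number. Number 1 has 1 library per genotype and allows no test. With libraries 2 and 3 summed and libraries 4 and 6 summed, 2 samples per genotype were left. In edgeR 0 of the 31 passed there (adjusted p of the 11 from 0.0885 to 0.288), against 0.13% of all genes. All 11 kept their direction, which their separate ranges made likely from the outset. At an unadjusted p under 0.05, 10 of the 31 passed there, against 20.2% of all tested genes. Without knock-out library 1, which leaves libraries 2 and 3, 22 of 31 passed (13 higher, 9 lower) against 66.2% of all genes (32.6% higher, 33.7% lower). Leaving out library 2, 3, 4, 5 or 6 left 5, 6, 3, 4 and 5 calls, against 12.5%, 12.8%, 8.71%, 13% and 10.8% of all genes. With total counts in place of TMM scaling, 10 of the 31 passed, 5 higher and 5 lower, against 26.7% of all genes (10.7% higher, 16.0% lower), and 40.1% of all called genes were higher instead of 50.7%. DESeq2 passed 13 of 30 against 37.0% of all genes, limma-voom 10 of 31 against 28.2%, and edgeR with no filter on low counts 10 of 31 against 19.9%. With libraries of 1 title stem summed, 13 of 31 passed against 29.0%. This sum leaves the nearly identical libraries in separate samples. A filter of 50 reads passed 9 of 25 against 28.8%, DESeq2's size factors 11 against 27.7%, unique reads 11 against 28.1%, and the last title number as a covariate 11 against 35.6%.

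**Figure D2:**
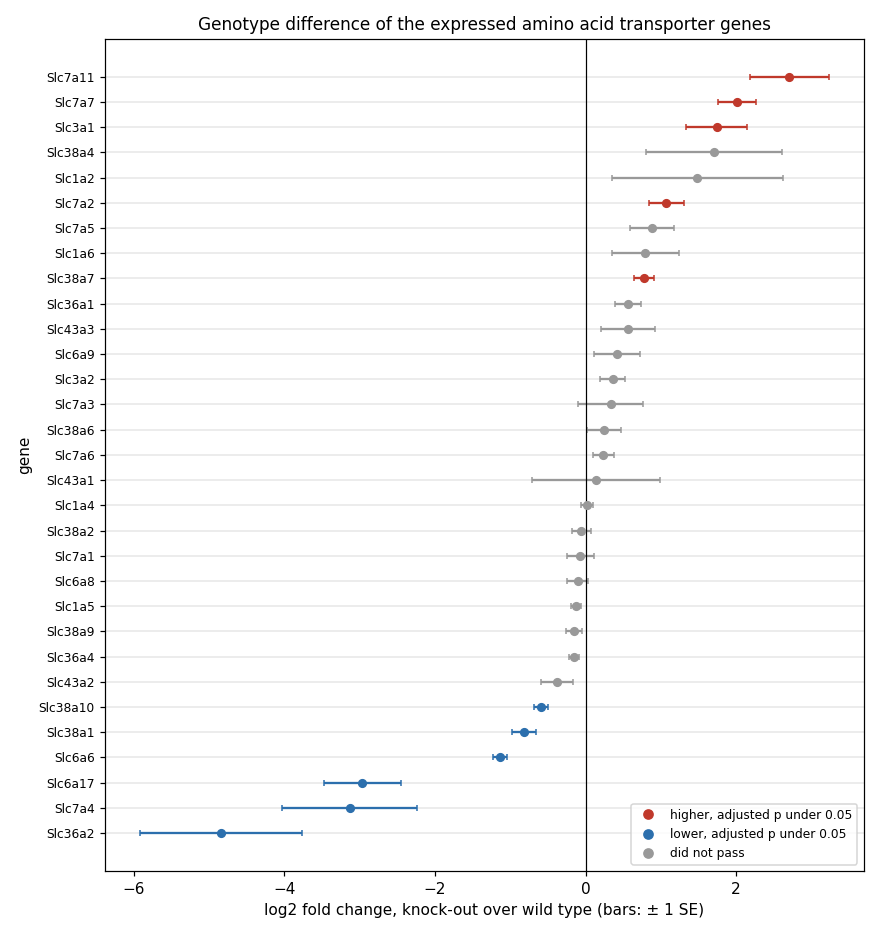
Log2 fold change of each of the 31 expressed genes, knock-out over wild type, with bars of 1 SE, from edgeR; red genes passed as higher, blue genes as lower and grey genes did not pass. The 5 red genes lie between 0.78 and 2.71 and the 6 blue genes between -4.84 and -0.59.

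Among heavy and light chains, 3 of the 6 expressed genes passed, all higher in the knock-out. Of all tested genes, 14.1% passed as higher. For Slc3a1 a difference was built into being tested, since it reached 10 reads in the knock-out libraries alone. Slc7a11 (chromosome 3, 49892526 to 50443614, minus strand, GRCm38) encodes xCT, the light chain that imports cystine in exchange for glutamate and so feeds glutathione synthesis. It stood at 5.84, 23.8 and 14.5 CPM across knock-out libraries 1 to 3 and at 2.63, 2.22 and 1.90 CPM across wild-type libraries 4 to 6. Every knock-out library lay above every wild-type library, and library 2 was far above library 3 although these libraries are otherwise nearly identical. The log2 fold change was 2.71 ± 0.53 (SE, n = 3 each; edgeR adjusted p = 0.0159). The call ended without library 3, 4, 5 or 6 (adjusted p up to 0.0735) and in limma-voom (0.0738).

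Slc7a7 (chromosome 14, 54369442 to 54417780, minus strand) encodes y+LAT1, which exports cationic amino acids in exchange for neutral ones and sodium. Its level was 11.1, 17.6 and 19.3 CPM across knock-out libraries 1 to 3 and 3.83, 3.45 and 4.59 CPM across wild-type libraries 4 to 6, so that the lowest knock-out library exceeded the highest wild-type library. It rose by a log2 fold change of 2.01 ± 0.25 (adjusted p = 0.00480), and the call held without any single library. The median log2 fold change of chromosome 14 exceeded the genome-wide one by 0.38, and its part was not tested. Slc7a7 shares 232 bases with Oxa1l on the opposite strand, whose reads numbered 1005, 1094 and 1006 in the knock-out, versus 717, 712 and 670 in the wild type.

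The promoters of these 2 light chains are shown because they held a match to the C/EBP-ATF response element, the site through which ATF4 acts on amino acid carriers. The motif TGATGNAA was searched on both strands in the 250 bases before each annotated start (RefSeq, GRCm38.p6), and capitals mark the matches. Windows were given for 21 of the 31 expressed members, and Slc7a11 and Slc7a7 alone among them had a match, against 3.45% of all 32851 windows and 3.91% of all 27025 genes. Slc7a11 has 1 window (chr3:50443614-50443863, minus strand) with 2 matches, 1 on each strand, the first from 66 to 59 bases before the start. Slc7a7 has 5 windows, of which 2 held a match; the one printed (chr14:54417945-54418194, minus strand) has it from 141 to 134 bases before the start. A match is a stretch of letters and not a measured binding site. No window was given for Slc1a5, Slc6a6, Slc6a8, Slc7a2, Slc7a3, Slc7a4, Slc7a5, Slc36a2, Slc38a1 and Slc43a3.
Slc7a11: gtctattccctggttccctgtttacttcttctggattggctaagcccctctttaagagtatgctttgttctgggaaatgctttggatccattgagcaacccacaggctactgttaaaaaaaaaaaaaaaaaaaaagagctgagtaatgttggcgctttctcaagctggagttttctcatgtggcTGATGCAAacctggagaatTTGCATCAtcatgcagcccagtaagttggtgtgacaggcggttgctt
Slc7a7: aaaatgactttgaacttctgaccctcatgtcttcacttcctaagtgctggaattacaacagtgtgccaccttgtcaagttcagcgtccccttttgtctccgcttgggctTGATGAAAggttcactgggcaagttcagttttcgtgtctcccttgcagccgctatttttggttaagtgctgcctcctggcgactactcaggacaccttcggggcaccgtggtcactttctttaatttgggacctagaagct

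The common heavy chain Slc3a2 (CD98) did not pass, with 207, 326 and 280.2 CPM across knock-out libraries 1 to 3 and 211, 217 and 206 CPM across wild-type libraries 4 to 6 (log2 fold change 0.36 ± 0.17, adjusted p = 0.160). Library 1 lay within the wild-type range, and libraries 2 and 3 lay above it. Slc7a5, the system L light chain LAT1 that brings in leucine and other large neutral amino acids, stood at 62.8, 139 and 119.6 CPM in the knock-out, versus 54.8, 62.2 and 57.1 CPM in the wild type. The genotypes of Slc7a5 did not overlap, but library 1 lay just above library 5, and the gene did not pass (0.88 ± 0.29, adjusted p = 0.0678). It passed in DESeq2 (adjusted p = 0.0136), with title stems summed (0.0159) and without knock-out library 1 (5.89e-05). Each of these settings counts the nearly identical libraries separately. Slc7a6, the y+LAT2 light chain, stood at 48.6, 70.7 and 63.4 CPM against 51.1, 52.0 and 51.9 CPM and did not pass (0.24 ± 0.14, adjusted p = 0.253). Both Slc3a2 and Slc7a6 passed as higher without library 1 (adjusted p = 0.00101 and 0.00157), and Slc3a2 also with title stems summed.

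Summed per kilobase, the 4 expressed light chains reached 0.559, 0.676 and 0.692 of the level of Slc3a2 across knock-out libraries 1 to 3, against 0.482, 0.500 and 0.510 across wild-type libraries 4 to 6. This ratio did not overlap between the genotypes. Slc3a1, the heavy chain rBAT that pairs with the kidney cystine light chain Slc7a9, was counted at 27, 17 and 19 reads in the knock-out, versus 4, 8 and 8 in the wild type (1.75 ± 0.41, adjusted p = 0.0266). Slc7a9 itself had 2 reads in wild-type library 4 and 0 elsewhere. The count of Slc3a1 is uncertain, since only 74.7% of its exon reads were unique, and its intron reads, 122, 159 and 124 against 147, 196 and 156, outnumbered its exon reads. The gene also shares 767 bases with Prepl on the opposite strand, and its call ended without library 2, 3, 4, 5 or 6 (adjusted p up to 0.104) and with stems summed (0.0552).

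Of the 4 expressed genes listed as cationic amino acid transporters, Slc7a2 rose and Slc7a4 fell. Of all tested genes, 14.1% passed as higher and 13.7% as lower. Slc7a2 (chromosome 8, 40862396 to 40922308, plus strand) encodes CAT2, an arginine and lysine carrier known to be induced in activated cells. It stood at 315, 562 and 564 CPM across knock-out libraries 1 to 3 and at 224, 239 and 223 CPM across wild-type libraries 4 to 6. All knock-out values were above the wild type, library 1 by the smallest margin (1.07 ± 0.23, adjusted p = 0.0223). The constitutive arginine carrier Slc7a1 (CAT1) did not pass, at 86.4, 141 and 124 CPM against 117, 128 and 124 CPM (-0.069 ± 0.18, adjusted p = 0.799), and its groups overlapped. Slc7a2 was thus at 3.01, 3.29 and 3.74 times Slc7a1 per kilobase in the knock-out and at 1.58, 1.54 and 1.48 times in the wild type. Slc7a4, whose transported substrate is not settled, was counted at 40, 4 and 3 reads in the knock-out, versus 123, 154 and 148 in the wild type, with library 1 between the other knock-out libraries and the wild type (-3.13 ± 0.90, adjusted p = 0.0480). Without library 1 its log2 fold change was -5.11. Slc7a3 (CAT3) had 28, 11 and 17 reads against 16, 21 and 11 and did not pass (adjusted p = 0.589). The calls of Slc7a2 and Slc7a4 ended without library 2, 3, 4, 5 or 6 (adjusted p up to 0.0934 and 0.134), and that of Slc7a4 also with total counts (0.0517) and with no filter (0.0508).

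Of the 4 expressed Slc1a genes, 0 passed in edgeR or limma-voom, and 0 had an unadjusted p under 0.05 in edgeR. In DESeq2, which gave no adjusted p for Slc1a2, 0 of the other 3 passed. Slc1a5 (ASCT2), a glutamine exchanger, stood at 100.3, 102 and 100.3 CPM in the knock-out, versus 111, 113 and 107 CPM in the wild type. The groups did not overlap, but the difference was small (-0.13 ± 0.062, adjusted p = 0.178). Slc1a4 (ASCT1), an exchanger of alanine, serine and cysteine, lay at 64.6 to 74.5 CPM in the knock-out and 66.0 to 72.2 CPM in the wild type (0.024 ± 0.081, adjusted p = 0.843). Slc1a6 (EAAT4), a glutamate transporter best known from cerebellar neurons, stood at 8.66, 28.8 and 28.3 CPM against 12.6, 13.1 and 12.2 CPM (0.79 ± 0.44, adjusted p = 0.223). Library 1 was below the wild type and libraries 2 and 3 above it. Slc1a2 (GLT-1), the main glutamate transporter of astrocytes, was counted at 175 reads in library 1 but at 9 and 10 in the other knock-out libraries, while wild-type counts were 20, 30 and 20. Its log2 fold change of 1.48 ± 1.14 (adjusted p = 0.362) rested on library 1 and was -1.10 without it, where it passed as lower (adjusted p = 0.0361).

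In the Slc38a family, 1 of 7 expressed genes rose and 2 fell, while the most abundant member did not pass. Of all tested genes, 14.1% rose and 13.7% fell. Slc38a2 stood at 499, 627 and 578 CPM across knock-out libraries 1 to 3 and at 635, 527 and 609 CPM across wild-type libraries 4 to 6, fully overlapping (-0.056 ± 0.12, adjusted p = 0.758). Slc38a1 (chromosome 15, 96571418 to 96642913, minus strand), the SNAT1 carrier of glutamine and other small neutral amino acids, fell. Its level was 88.4, 67.9 and 58.8 CPM in the knock-out against 123, 134 and 123 CPM in the wild type (-0.82 ± 0.16, adjusted p = 0.0155). The 3 libraries of each genotype stood clear of the others, with library 1 nearest to the wild type. Slc38a1 and Slc38a2 are neighbours, 44478 bases apart on the same strand. Slc38a10 (chromosome 11, 120103960 to 120151346, minus strand), a less studied member, fell from 350.4, 360.0 and 346 CPM to 259.6, 218 and 223 CPM (-0.59 ± 0.092, adjusted p = 0.00842), and this call held without any single library.

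Slc38a7 (chromosome 8, 95835920 to 95853539, minus strand), which lets glutamine out of lysosomes, rose to 84.6, 73.8 and 76.2 CPM from 45.8, 52.5 and 38.7 CPM (0.78 ± 0.13, adjusted p = 0.00995). Here knock-out library 1 was the highest, unlike for Slc7a11, Slc7a7 and Slc7a2. Slc38a9, the lysosomal arginine sensor of mTORC1, stood at 11.6, 13 and 12.6 CPM against 13.9, 13 and 14.2 CPM (-0.15 ± 0.11, adjusted p = 0.327). Slc38a6 lay at 4.76 to 7.40 CPM against 4.32 to 5.80 CPM (adjusted p = 0.449). Slc38a4, a liver-type SNAT that is imprinted in mice, was counted at 9, 50 and 36 reads against 4, 24 and 5 and did not pass (1.71 ± 0.91, adjusted p = 0.204). The call of Slc38a1 ended without library 2, 4, 5 or 6 (adjusted p up to 0.0642) and that of Slc38a7 without library 4 (0.0554).

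Among the proton-coupled carriers, Slc36a2 fell and the other two expressed genes did not pass. Slc36a2 (PAT2; chromosome 11, 55158470 to 55185077, minus strand), a carrier of glycine, alanine and proline, was counted at 7, 0 and 0 reads in the knock-out, versus 95, 54 and 70 reads in the wild type (-4.84 ± 1.08, adjusted p = 0.0236). It was near 0 in every knock-out library and low in every wild-type library. Its log2 fold change moved to -9.13 without library 1, a value set by the prior count since libraries 2 and 3 hold 0 reads, and its call ended without library 2, 3, 4, 5 or 6 (adjusted p up to 0.0968). Slc36a1 (PAT1), an exporter of amino acids from lysosomes, begins 19272 bases away on the opposite strand. It stood at 34.4, 48.2 and 49.8 CPM against 27.8, 34.1 and 27.4 CPM, with library 1 just above the highest wild-type library (0.57 ± 0.17, adjusted p = 0.0570). It passed as higher in DESeq2 (adjusted p = 0.0206), with stems summed (0.0370) and without library 1 (0.00110). Each of these settings counts the nearly identical libraries separately. Slc36a4 stood at 46.9, 47.6 and 44.1 CPM against 53.8, 50.6 and 49.7 CPM (-0.15 ± 0.069, adjusted p = 0.149).

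Of the 4 expressed Slc6a genes, 2 fell and none rose, against 13.7% of all tested genes that fell and 14.1% that rose. Of the falls, that of Slc6a17 was built into being tested, since it reached 10 reads in the wild-type libraries alone. Slc6a6 (TauT; chromosome 6, 91684053 to 91759066, plus strand) brings in taurine, an osmolyte. It stood at 199, 232 and 209 CPM across knock-out libraries 1 to 3 and at 451, 489.8 and 466 CPM across wild-type libraries 4 to 6. The values within each genotype were close and the genotypes far apart, including library 1. The log2 fold change was -1.14 ± 0.090 (adjusted p = 0.00131), the smallest adjusted p among the 31 members, and the call held without any single library. Slc6a17, a vesicular carrier of neutral amino acids in neurons, was counted at 5, 3 and 1 reads against 26, 33 and 19 (-2.97 ± 0.51, adjusted p = 0.0113), with its call lost without library 2, 4 or 5 (adjusted p up to 0.0595). Markers of nerve and glia summed to 12.7 to 29.6 CPM in the knock-out and 25.3 to 27.5 CPM in the wild type, with Sox10 and Snap25 at 0 in all libraries. Slc6a8, the creatine transporter, stood at 142, 129.8 and 128 CPM against 128, 173 and 128 CPM (-0.10 ± 0.14, adjusted p = 0.611). Slc6a9 (GlyT1), a glycine transporter, stood at 19.5, 45.6 and 38.8 CPM against 27.3, 24.4 and 26.1 CPM, with library 1 below and libraries 2 and 3 above the wild type (0.42 ± 0.30, adjusted p = 0.340). Only 62.4% of exon reads of Slc6a9 were unique, the lowest share among the 31, and the gene overlaps B4galt2 on the opposite strand.

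**Figure D3:**
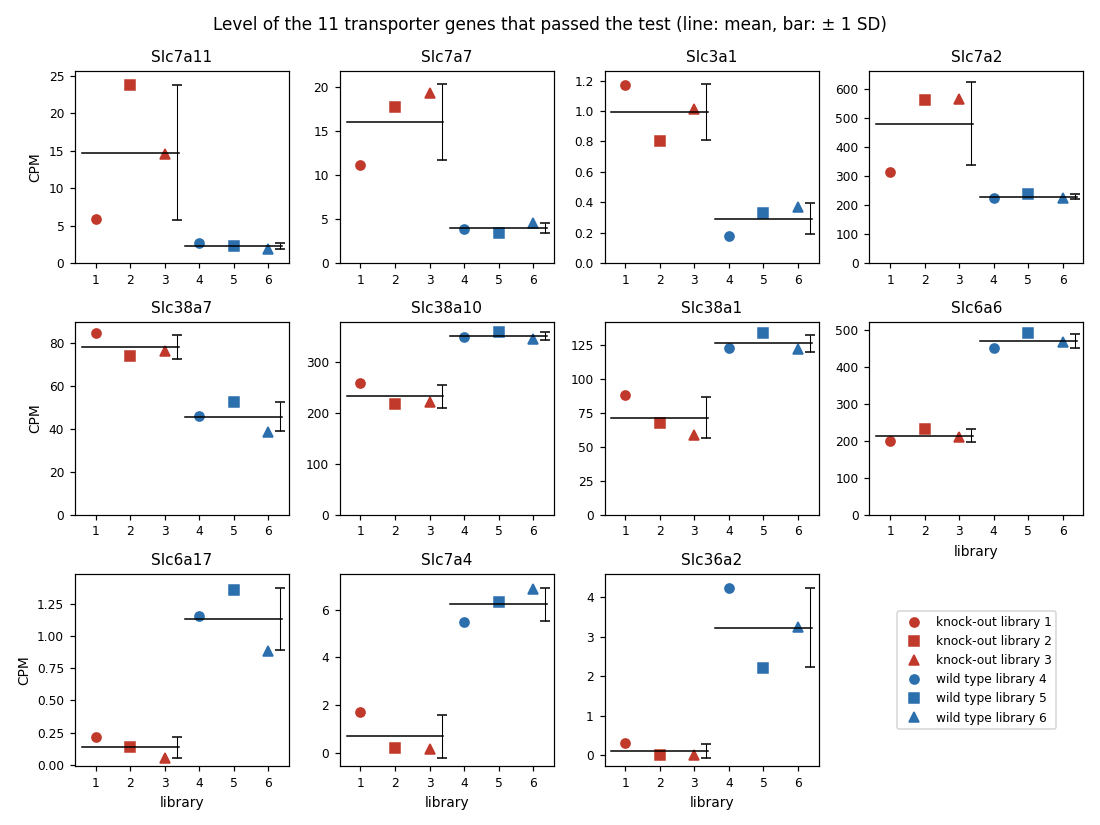
CPM of the 11 genes that passed the test in each library, 1 panel per gene with its own axis starting at or just below 0; red points are knock-out libraries 1 to 3 and blue points wild-type libraries 4 to 6, lines are means and bars 1 SD (n = 3). The 2 genotypes do not overlap in any panel, and knock-out library 1 is the knock-out library nearest to the wild type for Slc7a11, Slc7a7, Slc7a2, Slc38a10, Slc38a1, Slc6a17, Slc7a4 and Slc36a2.

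Of the 3 Slc43a genes, 0 passed in edgeR, DESeq2 or limma-voom, and 0 had an unadjusted p under 0.05 in edgeR. Slc43a3, known as a carrier of purine nucleobases rather than of amino acids, stood at 81.0, 207 and 213 CPM across knock-out libraries 1 to 3 and at 118, 104 and 116 CPM across wild-type libraries 4 to 6 (0.57 ± 0.36, adjusted p = 0.279). Its knock-out values lay on both sides of the wild type, library 1 below and libraries 2 and 3 above. Slc43a2 (LAT4) stood at 7.57, 6.36 and 5.16 CPM against 8.38, 9.70 and 6.76 CPM (-0.38 ± 0.22, adjusted p = 0.234). Slc43a1 (LAT3), 72984 bases from Slc43a3, was counted at 6, 48 and 33 reads against 12, 26 and 49 reads, with no order between the genotypes (adjusted p = 0.914).

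Knock-out library 1 and knock-out libraries 2 and 3 often disagreed on these genes, as they did on genes at large. Libraries 2 and 3 both lay outside the wild-type range on the same side for 25 of the 31 members (80.6%), against 80.4% of all tested genes. Library 1 lay inside the wild-type range for 5 members (16.1% against 16.9%), and for 4 of these libraries 2 and 3 lay outside. Of the 20 members that did not pass, 11 passed when library 1 was left out, 8 as higher (Slc3a2, Slc7a5, Slc7a6, Slc1a6, Slc6a9, Slc36a1, Slc38a4 and Slc43a3) and 3 as lower (Slc36a4, Slc43a2 and Slc1a2). Since 66.2% of all tested genes passed there, a pass in that setting was the outcome for most genes.

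**Figure D4:**
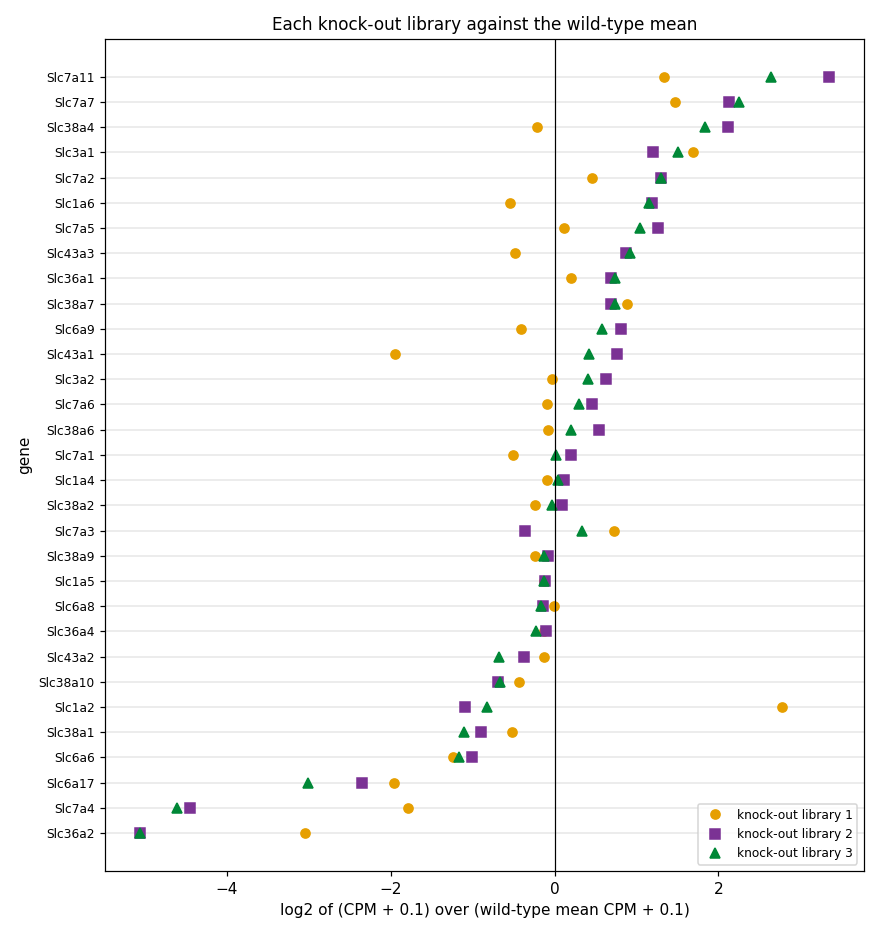
Log2 ratio of each knock-out library to the wild-type mean for the 31 expressed genes, computed on CPM plus 0.1; orange circles are library 1, purple squares library 2 and green triangles library 3. Libraries 2 and 3 lie close together for most genes, whereas library 1 falls on the other side of 0 from both for some, such as Slc1a6, Slc43a3 and Slc6a9.

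Junction and intron reads of the called members were also compared, from the same libraries. Junction reads lie within exons, so they are not independent of the exon totals. Since the 11 genes were picked by exon reads, a shared sign of junction reads was likely from the outset. Ratios of reads spanning exon junctions could be formed for 6 of the 11, those with at least 30 such reads in each genotype, and all 6 had the sign of the exon reads. For Slc6a6, junction reads numbered 967, 1159 and 991 in the knock-out, versus 2657, 3045 and 2559 in the wild type, and for Slc7a7 they numbered 133, 208 and 223 against 48, 43 and 52. Intron reads, which come mostly from unspliced RNA, gave the same sign for 6 of 7 called members. Those of Slc7a2 numbered 259, 603 and 537 against 186, 195 and 168, and those of Slc38a7 numbered 128, 155 and 124 against 36, 70 and 44. The exception was Slc3a1. For Slc38a10 the intron reads, 177, 237 and 172 against 244, 223 and 210, overlapped between the genotypes after scaling to CPM.

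The 4 expressed members of chromosome 8, Slc7a2, Slc7a5, Slc7a6 and Slc38a7, all had positive log2 fold changes. Of them 2 passed as higher, against 14.1% of all tested genes. The median of tested genes on that chromosome was 0.14 above the genome-wide one. On chromosome 11, Slc38a10 and Slc36a2 fell, against 13.7% of all tested genes, and Slc36a1, Slc1a4 and Slc43a2 did not pass. The median of that chromosome was 0.20 below the genome-wide one. The part of these chromosome shifts was not tested. Of the expressed members, 7 overlap another gene, and Slc7a5 lies wholly within the span shared with Galnt2l on the opposite strand. Reads of Galnt2l numbered 880, 665 and 403 in the knock-out, versus 547, 808 and 28 in the wild type. Whether reads of this pair were fully separated was not tested.

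Other carriers of amino acids and peptides, outside these families, were a list of their own. Of 16 tested, 2 rose and 2 fell, or 25%, against 27.8% of all tested genes. The mitochondrial carrier gene Sfxn2 (log2 fold change 0.59 ± 0.079, adjusted p = 0.00556) and the lysosomal peptide and histidine carrier Slc15a4 (0.39 ± 0.079, 0.0180) rose. The mitochondrial ornithine carrier Slc25a15 (-0.50 ± 0.12, 0.0258) and Slc66a2 (-0.32 ± 0.085, 0.0374) fell. Of 18 tested genes of the ATF4 response, 3 rose and 3 fell (33.3%), with a median log2 fold change of 0.20. Atf5, a transcription factor, rose from 266 ± 6.25 to 538 ± 120.5 CPM (1.02 ± 0.18, 0.0115), and the phosphatase subunit gene Ppp1r15a rose (0.79 ± 0.15, 0.0136). Nupr1, a stress-induced chromatin protein (-0.83 ± 0.087, 0.00296), and Chac1, a glutathione-degrading enzyme (-1.21 ± 0.20, 0.0107), fell. The ATF4 genes thus did not share a direction.

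In amino acid synthesis and breakdown, 5 of 30 tested genes rose and 6 fell (36.7%), against 27.8% of all tested genes. Ass1, which makes the arginine precursor argininosuccinate, rose from 9.83 ± 1.58 to 149 ± 8.33 CPM (3.92 ± 0.14, adjusted p = 1.80e-04), and the glutamate dehydrogenase Glud1 rose (0.62 ± 0.075, 0.00416). Glul, glutamine synthetase, fell from 629 ± 66.5 to 111 ± 12.7 CPM (-2.50 ± 0.13, 4.62e-04), and Got1, which links glutamate and aspartate, fell (-1.43 ± 0.12, 0.00155). In cystine use and glutathione synthesis, 5 of 17 rose and 3 fell (47.1%, against the same 27.8%). Hmox1, the haem-degrading enzyme, rose to 241, 612 and 386 CPM across knock-out libraries 1 to 3 from 68.1 ± 17.3 CPM (2.60 ± 0.38, 0.00717), and Ggt7 rose (1.37 ± 0.24, 0.0119), while Chac2 (-0.92 ± 0.20, 0.0219) and Ggt5 (-1.83 ± 0.40, 0.0228) fell.

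Of 33 tested mTORC1 genes, 4 rose and 1 fell (15.2%), against 27.8% of all tested genes. The mTORC1 inhibitors Tsc2 (0.51 ± 0.070, adjusted p = 0.00594) and Sesn1 (1.34 ± 0.27, 0.0171) rose, and Rptor, a subunit of the complex, fell (-0.23 ± 0.065, 0.0476). Of 20 cytosolic aminoacyl-tRNA synthetases, Rars (0.36 ± 0.081, 0.0242) and Aars (0.42 ± 0.12, 0.0453) rose and no other passed (10%). Among 12 tested regulators of carrier trafficking, 5 rose and 1 fell (50%, against the same 27.8%). Cav1, the caveolin of plasma membrane pits (1.51 ± 0.15, 0.00262), and Bsg, a chaperone of membrane carriers (0.79 ± 0.13, 0.00966), rose. Sgk3, a kinase that raises carrier activity, fell (-2.81 ± 0.60, 0.0212).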

How the data were processed

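The authors deposited whole-number read counts per gene and library, of which exon, unique exon, junction and intron counts were used, and exon lengths, which gave levels per kilobase. Coordinates follow GRCm38, as named in the submitters' processing notes, and all 61 members match GENCODE M21. The sources used here name no aligner, counter or strand setting. The kit was stranded and selected poly(A) RNA, per the labels' protocols. Exon counts went into edgeR 4.0.16 (R 4.3.3) with filterByExpr at a minimum count of 10, TMM scaling, genotype as the sole term and Benjamini-Hochberg adjustment over all tested genes. The standard error is the log2 fold change over the square root of F, and CPM use TMM-adjusted library sizes. The members, 7 pathway lists and 6 marker lists were chosen with earlier results of these data known. All expressed members could be named, with all values for those that passed or were among the 12 highest per kilobase. Each pathway list gave up to 2 rises and 2 falls of smallest adjusted p, and each marker list its 2 highest genes. Other markers, and values of further members, were named after they were seen. On simulated counts of 12660 genes with 200 changed, edgeR recovered 24.5% of 2-fold and 79% of 4-fold changes, with 3.92% and 4.82% false calls. The simulated libraries were drawn independently, without nearly identical pairs, so these rates cannot be carried over to the libraries here. Alternatives were other scalings, filters and tools (DESeq2 1.42.0, limma-voom in limma 3.58.1), unique reads, summed libraries, a title number as covariate and leaving out each library.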

Additional observations from a re-analysis of the deposited data

How the results depend on the processing

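The count of 11 called transporter genes was 9 to 13 under other scalings, filters, tools, unique reads, summed title stems and the title number as covariate. All of these settings keep the nearly identical libraries in separate samples. The count was 0 with the nearly identical pairs summed, where the count over all genes was 17 instead of 3524. Leaving out each library gave 3 to 22 transporter genes and 1120 to 8486 genes over the whole table. No paired analysis was possible because the sample numbers 1 to 6 are shared by no libraries. The last title number, 1 or 2 in both genotypes, matches no library to a single partner, and as a covariate it gave 11 transporter genes and 4510 genes over the whole table. No called gene changed direction in the 16 alternatives. As the ranges of the called genes did not overlap between the genotypes, this was likely from the outset. Calls of Slc6a6, Slc7a7 and Slc38a10 were lost only with the pairs summed, where each genotype has 2 samples. Of 20 uncalled genes, 6 changed sign (log2 fold changes). With total counts Slc1a4 was at -0.074, and with pairs summed at -0.017. Slc43a1 was at -0.15 in limma-voom, -0.079 with pairs summed and -0.18 with the covariate. Leaving out each library gave -0.021 to 0.072 for Slc1a4, -0.37 to 0.82 for Slc43a1, -0.13 to 0.023 for Slc38a2, -0.22 to 0.10 for Slc7a1, -0.18 to 0.056 for Slc6a8 and -1.10 to 1.99 for Slc1a2. The cause was not tested. For the other lists, 61 counts stayed within 1.5 times and 51 moved further.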

Other observations

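Knock-out libraries 2 and 3 were nearly identical, yet several transporter genes were higher in library 2. Among 10646 genes with a mean of at least 100 reads, 50.3% were higher in library 2 than in library 3. Of the 23 expressed transporter genes in that set, 17 were higher in library 2, with a median log2 ratio of 0.11. Slc7a11 had the largest ratio of them, 1.64 (506 against 273 reads), rank 60 of the 10646 genes. Slc3a2 and Slc7a5, which form system L, both had a ratio of 1.16, Slc6a9 one of 1.18 and Slc7a1 one of 1.13, while Slc7a2 (0.996), Slc38a7 (0.968) and Slc7a7 (0.915) were level or lower in library 2. The ATF4 response list showed a median log2 ratio of 0.19, with 13 of 16 genes higher in library 2, among them Atf3 (2.32), Ddit4 (1.26), Chac1 (1.26) and Trib3 (1.22). Hmox1 had a ratio of 1.59. In the other nearly identical pair, wild-type libraries 4 and 6, 14 of 23 transporter genes were higher in library 4 (median log2 ratio 0.020), as were 12 of 16 genes of the ATF4 list (0.044) and 5186 of all 10646 genes. Slc7a11 had a ratio of 1.38 there (59 against 41 reads). The count of ATF4 genes higher in 1 library was thus nearly the same in both pairs. The genes named in this paragraph were chosen after their values were seen, each ratio rests on 1 library against 1, and no test was made.

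Galnt2l, which overlaps Slc7a5, had 547 reads in wild-type library 4 and 28 in wild-type library 6, whereas Slc7a5 itself had 1228 and 1233.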
